A study of Mus musculus with 167 samples.

Results

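MiR-126a is a microRNA (miRNA), a short RNA that lowers the output of messenger RNAs with matching sites, and it is cut as 2 mature strands, mmu-miR-126a-3p and mmu-miR-126a-5p, from the opposite arms of 1 hairpin. Both were taken by name from the count tables, as 2 of 1915 mature miRNAs, and followed through all 167 libraries of 35 mice. C3Hf/Sed/Kam (C3H) and C57Bl/6 (C57) mice received whole thorax lung irradiation (WTLI), in which X-rays reached the chest while lead covered the remaining body, or a sham exposure. Lung, heart and brain homogenates and the red (RBC) and white (WBC) blood cell fractions came from survivors at the study endpoint, month 4 in C3H and month 6 in C57, so strain and time cannot be told apart. Lung, heart, brain and RBC were sequenced in 7 irradiated and 8 sham C3H mice and in 5 irradiated and 15 sham C57 mice, and WBC in 6 irradiated and 5 sham C3H mice and in 5 irradiated and 11 sham C57 mice. All C3H mice were female, while the C57 mice comprised 1 female and 4 males after WTLI and 7 females and 8 males after sham exposure. The brain lay outside the field, and the chest organs were those exposed.

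MiR-126a is known as the characteristic miRNA of endothelium, the inner lining of blood vessels. Its gene lies within Egfl7, which encodes a protein secreted by endothelial cells. The 3p strand is best known for sustaining signalling by vascular endothelial growth factor through repression of Spred1 and Pik3r2, which restrain that pathway, and the 5p strand for repression of Dlk1, which holds back endothelial proliferation. Platelets and blood stem and progenitor cells also contain miR-126a. Lung and heart are among the most densely vascularised organs, and endothelium is regarded as a main target of radiation injury in both.

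In the mouse genome (GRCm38.p6, the build of the mm10 reference used for the files), RefSeq places the Mir126a hairpin on the plus strand of chromosome 2 at 26591357 to 26591429, inside Egfl7 at 26581083 to 26592682. Of 19 annotated Egfl7 transcripts, 9 span the hairpin. In 8 of these it is intronic, and in a protein-coding transcript with 10 exons it lies between exons 7 and 8, where exon 7 ends at 26591063 and exon 8 begins at 26591664. In the other transcript, a retained-intron form, it is exonic. Mir126b is annotated on the minus strand at the same place. The RefSeq extract used here gave 3 mature strands of the locus, and these are shown because the arm behind most of the counts can then be set beside the strands that could be mistaken for it. Capitals mark the seed, bases 2 to 8, by which a miRNA pairs with its targets.
mmu-miR-126a-3p: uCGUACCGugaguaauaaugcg
mmu-miR-126b-3p: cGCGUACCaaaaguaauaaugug
mmu-miR-126b-5p: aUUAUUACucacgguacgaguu
MiR-126a-3p occupies 26591402 to 26591423, miR-126b-3p 26591363 to 26591385 and miR-126b-5p 26591399 to 26591420. The 3 seeds differ, and none of them is shared with another of the 1679 mature miRNA names compared. MiR-126b-5p is the antisense of miR-126a-3p over 19 bases, 19 of them complementary, so reads of the pair are told apart by strand. Over all libraries 93365625 reads were assigned to miR-126a-3p and 5827411 to miR-126a-5p, against 27 to miR-126b-3p and 8 to miR-126b-5p, with at most 4 and 1 reads in any library. The miR-126b strands were therefore at or near the floor of detection in every tissue, and the values below are those of miR-126a.

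The level of an arm is given as its share of the miRNA reads of a library (percent), and differences are on the log2 scale of RPM, the share of an arm scaled to a common library size. Library totals ranged from 1794995 to 7865102 reads. Counting error (95% Wilson interval) was at most 0.0638 percentage points for the 3p share and 0.0230 points for the 5p share, and in RBC it reached 21.3% of the 5p share, where the lowest library held 86 reads. Each library came from a separate mouse within its group. The endothelial marker list used here held only the arms themselves, so the endothelial label was not checked against independent markers. In whole tissue fewer endothelial cells and less miR-126a per cell cannot be told apart.

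The arms were far more abundant in solid organs than in blood fractions. In sham mice miR-126a-3p took 36.2% ± 5.47 of lung reads (SD, n = 23), 30.9% ± 2.37 of heart reads (n = 23) and 12.9% ± 1.89 of brain reads (n = 23), but 0.209% ± 0.156 of WBC reads (n = 16) and 0.108% ± 0.0289 of RBC reads (n = 23). MiR-126a-5p took 2.49% ± 0.489 of lung, 2.13% ± 0.778 of heart, 0.606% ± 0.166 of brain, 0.0199% ± 0.00634 of WBC and 0.0147% ± 0.00691 of RBC reads. The 3p arm was the most abundant miRNA in 35 of 35 heart, 35 of 35 brain and 33 of 35 lung libraries. The 5p arm ranked between 6 and 17 in lung, between 5 and 16 in heart and between 19 and 48 in brain.

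**Figure D1:**
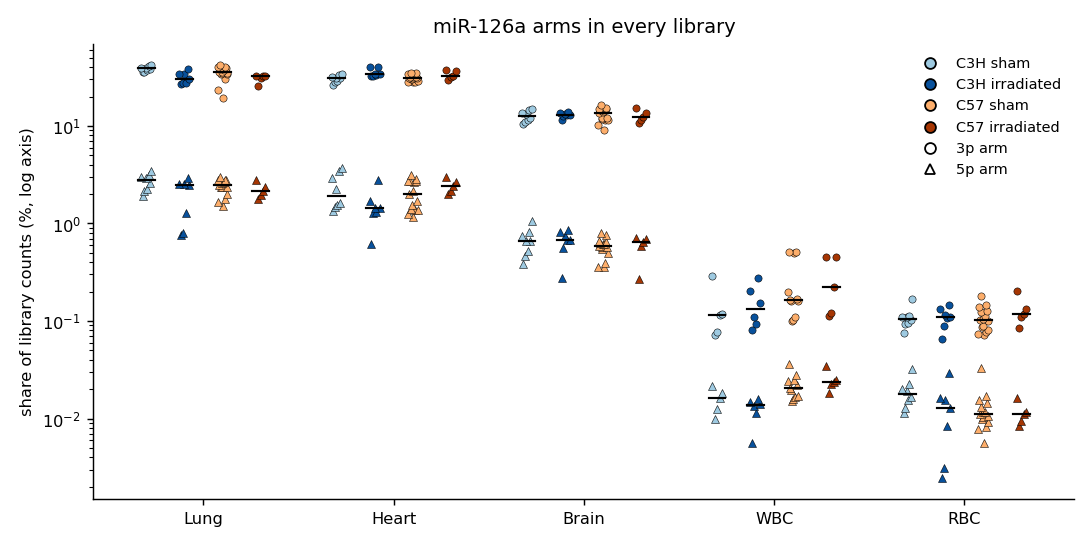
Share of library reads (percent, log axis) taken by miR-126a-3p (circles) and miR-126a-5p (triangles) in every library, by tissue, strain and exposure; horizontal bars are group medians. Lung and heart lie highest, brain is intermediate, and WBC and RBC are lowest for both arms, with sham 3p means of 36.2% in lung and 0.108% in RBC.

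The tissues were compared within the same animals (sign-flip permutation test, two-sided, Benjamini-Hochberg adjustment over 30 tests of 10 tissue pairs). The test used 100000 draws, or every possible sign flip where 16 or fewer mice were paired. Lung exceeded brain by 1.48 log2 units of miR-126a-3p (SD 0.325, higher in 23 of 23 sham mice, adjusted permutation p = 4.29e-05, from the smallest p the draws can give) and heart exceeded brain by 1.27 (SD 0.210, 23 of 23 mice, same p). Brain in turn exceeded WBC by 6.27 (SD 0.843, 16 of 16 mice, adjusted permutation p = 4.58e-05) and RBC by 6.93 (SD 0.456, 23 of 23 mice, adjusted permutation p = 4.29e-05). Lung and heart lay close together. MiR-126a-3p was higher in lung by 0.21 (SD 0.236, higher in 20 of 23 mice, adjusted permutation p = 0.000818), whereas miR-126a-5p differed by 0.29 (SD 0.689, higher in 12 of 23 mice, adjusted permutation p = 0.0652). In a limma fit over all miRNAs with the animal as a block that 5p difference was called (0.29, limma adjusted p = 0.0343). WBC exceeded RBC by 0.76 for the 3p arm (14 of 16 mice, adjusted permutation p = 0.00505) and by 0.70 for the 5p arm (12 of 16 mice, adjusted permutation p = 0.00275), and the 5p call was lost with the animal as a block (0.49, limma adjusted p = 0.0628). Marker miRNAs did not separate these fractions cleanly. The median sum of 5 leukocyte miRNAs in C3H and C57 sham mice was 20973 and 24337 RPM in WBC. In RBC it was 28119 and 26023 RPM. That of 4 erythrocyte miRNAs was 40107 and 45490 RPM in WBC, and 63580 and 48625 RPM in RBC. In C57 sham mice alone the 3p difference between lung and heart was not called (0.14, 12 of 15 mice, adjusted permutation p = 0.0718), and in irradiated mice it turned to −0.15 (lower in lung in 10 of 12 mice, adjusted permutation p = 0.0280). Over all sham mice the order of the 3p arm by share was lung, heart, brain, WBC and RBC, each neighbouring pair past the test. The order was not tested on a scale other than the library total. In sham heart miR-1a-3p alone took 22.4% (C3H) and 24.5% (C57) of that total. For the 5p arm the calls between lung and heart and between WBC and RBC depended on the test.

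The balance of the arms also depended on the tissue. The 3p/5p ratio of reads in sham mice averaged 15.1 ± 4.03 for lung, 16.5 ± 6.10 for heart and 22.4 ± 4.82 for brain, and 11.6 ± 9.73 for WBC and 8.38 ± 3.46 for RBC. The log2 ratio was higher in brain than in lung by 0.58 (higher in 21 of 23 mice, adjusted permutation p = 4.29e-05) and than in heart by 0.51 (17 of 23 mice, adjusted permutation p = 0.00235), and higher in heart than in RBC by 0.99 (22 of 23 mice, adjusted permutation p = 4.29e-05). In irradiated mice neither brain difference was called, with lung minus brain at −0.38 (adjusted permutation p = 0.187) and heart minus brain at −0.14 (adjusted permutation p = 0.666). In C3H sham mice alone heart minus brain was −0.46 (4 of 8 mice each way, adjusted permutation p = 0.246). Lung and heart differed by −0.08 (SD 0.743, adjusted permutation p = 0.636), as did WBC and RBC by 0.06 (SD 1.13, adjusted permutation p = 0.820), neither beyond the spread between mice. Ligation and amplification during library preparation can favour 1 strand over the other, so a ratio is read here between samples and not as a number of molecules.

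Beside the arms in abundance stood miRNAs of several origins. The runner-up to miR-126a-3p was miR-16-5p in lung (7.0% of reads as a mean over all libraries), the cardiac muscle miRNA miR-1a-3p in heart (22.3%) and let-7f-5p in brain (7.32%). In WBC and RBC the 3p arm held rank 32 by mean RPM. Over the 20 group means, the miRNAs whose log2 level ran most like miR-126a-3p were miR-455-5p (Pearson r = 0.990), miR-143-3p (r = 0.990), miR-27b-3p (r = 0.989), miR-23b-3p (r = 0.987) and miR-145a-5p (r = 0.986), of 228 compared. For miR-126a-5p they were miR-145a-5p (r = 0.993), miR-143-3p (r = 0.992), miR-143-5p (r = 0.989), miR-455-5p (r = 0.984) and miR-23b-3p (r = 0.976). The arms themselves gave r = 0.995 with each other. MiR-143 and miR-145a are best known from smooth muscle and other mesenchymal cells. These correlations rest on 20 points that share libraries and are set mainly by the contrast between organs and blood.

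The question of the irradiated against sham comparison was whether miR-126a changed late after WTLI in the exposed organs and elsewhere. In C3H lung both arms were lower. The miR-126a-3p share ranged from 35.8% to 42.5% with a median of 39.0% in the 8 sham lungs, and from 26.8% to 38.3% with a median of 30.3% in the 7 irradiated lungs. All 7 irradiated lungs lay below the sham median and 6 below every sham lung, so the groups overlapped in 1 library. The mean fell from 38.7% ± 2.40 to 31.2% ± 4.36, a log2 difference of −0.32 (SE 0.118, limma adjusted p = 0.0330, n = 7 and 8). In this comparison 33.1% of the 350 miRNAs tested passed an adjusted p of 0.05, 27.1% upward and 6.0% downward.

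MiR-126a-5p ranged from 1.93% to 3.42% with a median of 2.77% in C3H sham lungs, and from 0.762% to 2.92% with a median of 2.49% in irradiated lungs. It lay below every sham lung in 3 of 7 irradiated lungs, while the other 4 lay within the sham range. The mean fell from 2.67% ± 0.522 to 1.90% ± 0.924, a log2 difference of −0.65 (SE 0.224, limma adjusted p = 0.0224). The lungs with least 5p were not those with least 3p. The 3 lungs at 0.762%, 0.799% and 1.27% for the 5p arm held 38.3%, 30.3% and 34.0% of the 3p arm, and the 3 lungs with the lowest 3p shares, 26.8%, 27.3% and 27.8%, held 2.92%, 2.52% and 2.55% of the 5p arm. The 3p/5p ratio therefore spread from 9.16 to 50.2 in irradiated against 11.5 to 22.0 in sham lungs, with 3 irradiated lungs above and 3 below every sham lung. Its mean log2 difference was 0.33 (SE 0.278, limma adjusted p = 0.465), with 6.98% of 86 hairpins called, and it ran from 0.09 to 0.50 with 1 library left out, not called in any of 15 fits.

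Neither arm reached the additional fold threshold of the study in C3H lung, which 12.6% of the miRNAs passed together with the adjusted p. The median difference of all 350 miRNAs was 0.27 on the scale of library totals and −0.02 with TMM factors (trimmed mean of M-values), and on the TMM scale miR-126a-3p differed by −0.62 (limma adjusted p = 0.00277) and miR-126a-5p by −0.95 (limma adjusted p = 0.000743). With the 10 other most abundant miRNAs removed from the totals the differences were −0.15 (limma adjusted p = 0.109) and −0.48 (limma adjusted p = 0.0941). In percentage points, the 3p share fell by 7.49, while the share of miR-21a-5p, a miRNA commonly raised in injured and fibrotic tissue, went from 2.18% ± 0.229 to 7.56% ± 2.37 of reads.

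The sample titles carry a letter, A or B, whose meaning is not given. Among libraries with letter A the C3H lung difference was −0.22 for the 3p arm (3 irradiated, 4 sham, limma adjusted p = 0.526) and −0.77 for the 5p arm (limma adjusted p = 0.115), and among letter B −0.40 (4 irradiated, 4 sham, limma adjusted p = 0.00588) and −0.62 (limma adjusted p = 0.10). The direction was the same in both letters for both arms. Leaving out 1 C3H library at a time gave −0.37 to −0.29 for the 3p arm, called in 9 of 15 fits (not without irradiated replicate 3, 5, 6 or 7 or sham replicate 2 or 5, limma adjusted p = 0.0522 to 0.0765), and −0.79 to −0.46 for the 5p arm, called in 13 of 15 fits. Without irradiated replicate 1 or 7, both among the lungs with least 5p, the 5p arm was not called (−0.46, limma adjusted p = 0.0881, and −0.47, limma adjusted p = 0.0909).

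In C57 lung no difference passed the test. The 5 irradiated lungs held 32.5%, 30.9%, 32.9%, 32.8% and 25.7% of miR-126a-3p, all below the sham median of 35.9% but within the sham range of 19.6% to 42.3%. The means were 31.0% ± 3.03 and 34.8% ± 6.20, a log2 difference of −0.15 (SE 0.118, limma adjusted p = 0.372, n = 5 and 15), where 20.6% of miRNAs were called, 17.1% upward and 3.43% downward. The irradiated 5p shares were 1.79%, 1.95%, 2.35%, 2.13% and 2.79% against 1.52% to 3.01% in sham lungs, a log2 difference of −0.11 (SE 0.220, limma adjusted p = 0.743). The ratio differed by −0.04 (SE 0.277, limma adjusted p = 0.964).

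A pair of C57 sham lungs stood apart. In these, replicates 1 and 4, miR-21a-5p took 20.2% and 23.7% of the reads, against 2.42% to 5.41% in the other 13, and miR-126a-3p took 19.6% and 23.6%, the lowest shares of any lung library and the only ones in which it was not the top miRNA. With both left out, an alternative chosen after the values were seen and one that removes the lowest sham values, the C57 lung difference in the 3p arm was −0.25 (limma adjusted p = 0.0130). Among C57 males alone, which keeps that pair, it was 0.00 (limma adjusted p = 0.998), and in letter B alone, which leaves it out, −0.30 (limma adjusted p = 0.0402). In letter A alone, with 2 irradiated and 8 sham mice, it was −0.0044 (limma adjusted p = 0.984).

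In heart no change of the 3p arm passed the test. The miR-126a-3p share ranged from 26.1% to 33.7% with a median of 31.1% in 8 C3H sham hearts, and from 32.4% to 40.2% with a median of 33.8% in 7 irradiated hearts. Every irradiated heart lay above the sham median and 4 of 7 above every sham heart. The means were 30.5% ± 2.62 and 35.2% ± 3.39, and the log2 difference of 0.21 (SE 0.0745) missed the threshold (limma adjusted p = 0.0525, called in 6 of 15 fits with 1 library left out, at adjusted p = 0.0359 to 0.123), with 14.4% of 312 miRNAs called, 7.69% upward and 6.73% downward. The cardiac muscle miRNA miR-1a-3p, the other large share of the heart reads, differed by −4.48 percentage points in mean share (irradiated minus sham, log2 difference −0.46, limma adjusted p = 0.104), against 4.74 points for the 3p arm. The C3H heart with the highest 3p share, irradiated replicate 3 at 40.2%, held the least of it, 4.57%. The median of all miRNAs was −0.17 there, and with TMM factors the 3p difference was 0.33 (limma adjusted p = 0.126). Within letters the difference was 0.40 in A (limma adjusted p = 0.0336) and 0.05 in B (limma adjusted p = 0.896), and the difference between letters was not tested. In C57 heart the irradiated shares were 32.7%, 36.7%, 31.8%, 37.1% and 29.5% against 28.2% to 35.2% in sham hearts, a log2 difference of 0.11 (SE 0.0746, limma adjusted p = 0.608), with 5.45% of miRNAs called, 4.81% upward and 0.641% downward.

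MiR-126a-5p ranged from 1.33% to 3.71% in C3H sham hearts and from 0.613% to 2.76% in irradiated hearts, with 3 of 7 irradiated hearts below every sham heart. The log2 difference of −0.62 (SE 0.263) did not pass (limma adjusted p = 0.0940), and it was −1.10 in letter A (limma adjusted p = 0.0480) and −0.12 in letter B (limma adjusted p = 0.909). The 3p/5p ratio rose to 65.6 in 1 irradiated heart, replicate 3, and its log2 difference was 0.82 (SE 0.304, limma p = 0.0109, limma adjusted p = 0.125), with 0 of 74 hairpins called. That heart also held 4.57% miR-1a-3p, against 14.05% to 23.6% in the other 6 irradiated C3H hearts. With 1 C3H heart left out, the 5p arm and the ratio were each called in 1 of 15 fits. Both calls came without irradiated replicate 1 (−0.78, limma adjusted p = 0.0288, and 0.99, limma adjusted p = 0.0402). In C57 heart the 5p arm differed by 0.32 (SE 0.260, limma adjusted p = 0.655), and by −0.04 in males alone.

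**Figure D2:**
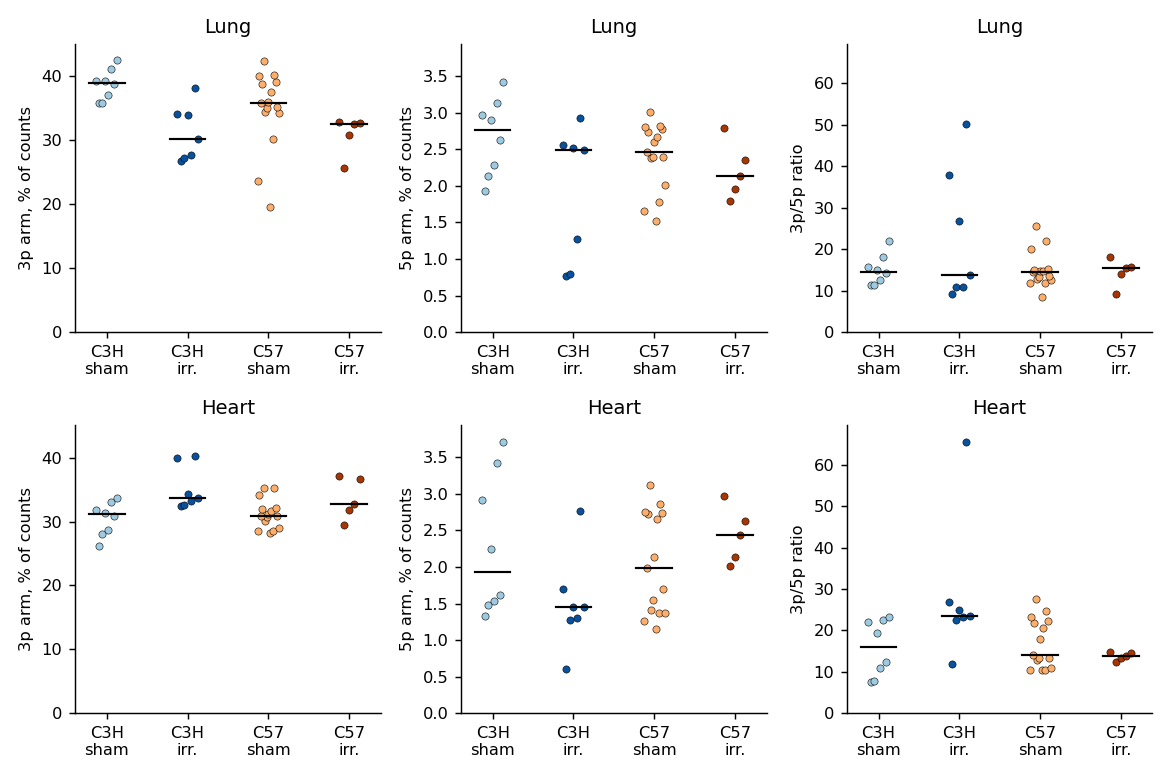
Shares of miR-126a-3p and miR-126a-5p (percent of library reads) and the 3p/5p ratio of reads in each lung (top) and heart (bottom) library, by strain and exposure (irr., irradiated); horizontal bars are group medians and axes start at 0. In C3H lung 6 of 7 irradiated libraries lie below all sham libraries for the 3p arm, and the irradiated ratios spread from 9.16 to 50.2.

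The difference between the organs was tested directly. In C3H mice the change in lung minus the change in heart was −0.53 for miR-126a-3p (SE 0.137, limma adjusted p = 0.00439), in a joint fit that called 14.2% of 374 miRNAs and in which the median of all miRNAs was 0.44. It was called in 30 of 30 fits that each left out 1 library (−0.58 to −0.49), was −1.11 with TMM factors (limma adjusted p = 0.000300), and was −0.53 with the animal as a block (limma adjusted p = 0.00260). In C57 mice it was −0.26 (SE 0.137, limma adjusted p = 0.373, 3.21% of miRNAs called). For miR-126a-5p the C3H value was −0.03 (SE 0.350, limma adjusted p = 0.960). Its C57 value was −0.44 (SE 0.345, limma adjusted p = 0.672).

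The organs were also set side by side within each mouse. Lung held more miR-126a-3p than heart in 8 of 8 C3H sham mice, by 8.24 ± 2.34 percentage points, but in 1 of 7 irradiated C3H mice, by −4.00 ± 5.56 points. In C57 it held more in 12 of 15 sham mice, by 3.62 ± 5.27 points, and in 1 of 5 irradiated mice, by −2.61 ± 2.90 points. The pair of C57 sham lungs that stood apart came from mice at −8.61 and −4.84 points, and the other exception was at −0.08. On the log2 scale lung minus heart was −0.15 over the 12 irradiated mice (SD 0.195, lower in 10 of 12, adjusted permutation p = 0.0280), against 0.21 in the 23 sham mice given above. Quantile normalisation, which the study applied, sets a miRNA of rank 1 to the same value in every library, and with it the C3H difference of −0.53 became 0.00.

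**Figure D3:**
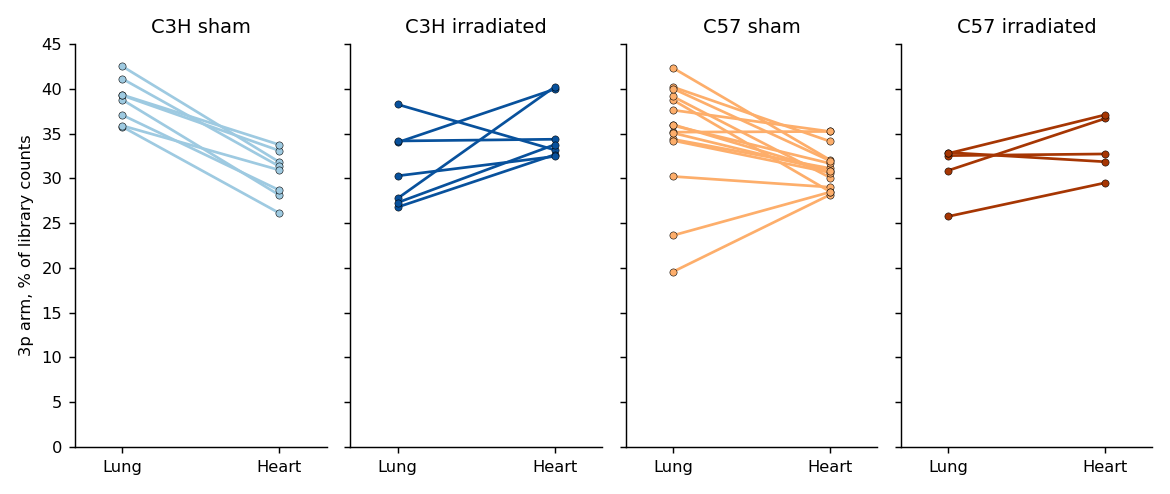
Share of miR-126a-3p (percent of library reads) in the lung and the heart of each mouse, joined by a line, in 4 panels by strain and exposure. Lung was higher in 8 of 8 C3H sham mice and in 1 of 7 irradiated C3H mice.

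Whether the strains differed in their response was asked with the interaction of strain and irradiation in each tissue. None of the 15 tests of miR-126a (3 measures in 5 tissues) passed. The smallest unadjusted p were those of heart, where the C3H change minus the C57 change was −0.94 for miR-126a-5p (SE 0.370, limma p = 0.0155, limma adjusted p = 0.308) and 1.03 for the log2 ratio (SE 0.430, limma p = 0.0224, limma adjusted p = 0.381). Of the C57 hearts 4 of 5 irradiated but 8 of 15 sham were from males, and with C57 males alone the 5p value was −0.58 (limma adjusted p = 0.947). Over 13 alternatives it ran from −1.59 in letter A to −0.29 in letter B, and the ratio's over 9 from 0.32 to 1.75, with neither called in any. In lung it was −0.17 (95% interval −0.51 to 0.17) for the 3p arm, with 0.286% of miRNAs called.

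Outside the chest organs no change was called. In brain the irradiated minus sham difference was 0.04 in C3H (SE 0.105) and −0.04 in C57 (SE 0.104) for miR-126a-3p, with 0 of 433 miRNAs called in either strain, and the means of the 4 groups lay between 12.7% and 13.1%. The 95% interval in C3H brain, −0.17 to 0.25, is narrower than those in blood. In WBC the 3p arm varied most between mice, from 0.0993% to 0.513% in the 11 C57 sham mice, and the differences of 0.24 in C3H (SE 0.492) and 0.20 in C57 (SE 0.430) were well inside that spread. In RBC the 3p arm differed by 0.00 in C3H (SE 0.208) and 0.26 in C57 (SE 0.205) on library totals, where the median of all miRNAs was −0.35 and −0.026. In C3H RBC it was 0.38 with voom and TMM factors, 0.42 with edgeR and TMM factors and 0.36 with DESeq2, none of them called (adjusted p = 0.347, 0.232 and 0.307).

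MiR-126a-5p in C3H RBC ranged from 0.0114% to 0.0319% in sham mice and from 0.00244% to 0.0296% in irradiated mice, with 3 of 7 irradiated mice below every sham mouse. Its log2 difference was −0.94 (SE 0.368, limma p = 0.0153, limma adjusted p = 0.186) and that of the 3p/5p ratio 0.93 (SE 0.342, limma p = 0.00998, limma adjusted p = 0.150). Of 45 hairpins, 2.22% were called. With 1 library left out the 5p difference ran from −1.21 to −0.61, and the arm and the ratio were each called in 1 of 15 fits. Both calls came without irradiated replicate 3 (−1.21, limma adjusted p = 0.0394, and 1.13, limma adjusted p = 0.0326). In letter B the differences were −1.73 and 1.71 (limma adjusted p = 0.0235 and 0.0279), and in letter A 0.12 and −0.06. These shares rest on 86 to 830 reads of the 5p arm per library.

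**Figure D4:**
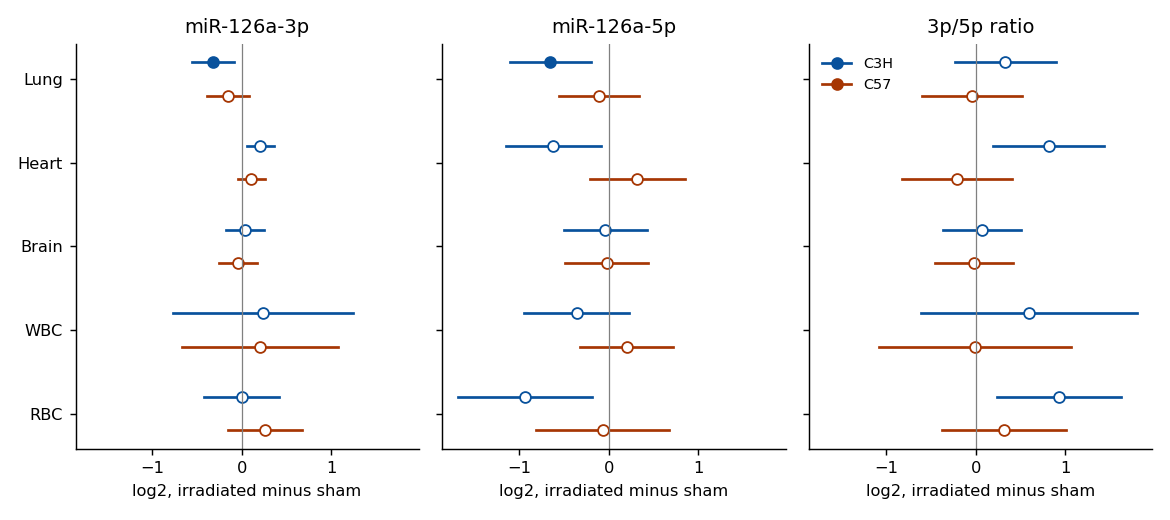
Log2 difference, irradiated minus sham, of miR-126a-3p, miR-126a-5p and the 3p/5p ratio in 5 tissues of C3H (blue) and C57 (brown) mice; lines are 95% intervals and filled points passed an adjusted p of 0.05. The 2 filled points are the arms in C3H lung, at −0.32 and −0.65.

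Sex went with many miRNAs in heart, the 5p arm among them. Among C57 sham hearts miR-126a-5p took 1.40% ± 0.182 of reads in 7 females, from 1.15% to 1.70%, and 2.62% ± 0.376 in 8 males, from 1.99% to 3.12%. The log2 difference of 0.90 (SE 0.218, limma adjusted p = 0.00276) was called. It was not particular to this arm, with 37.6% of 367 miRNAs called in that comparison and a median of 0.31 over all of them. With TMM factors it was 0.52 (limma adjusted p = 0.0152). MiR-126a-3p was 31.3% ± 0.591 in females and 31.1% ± 3.18 in males, a log2 difference of −0.01 (SE 0.0751, limma adjusted p = 0.891), but with TMM factors it was −0.39 (limma adjusted p = 0.0415). The ratio was 22.6 ± 3.08 in females and 12.01 ± 1.54 in males, a log2 difference of −0.91 (SE 0.261, limma adjusted p = 0.00520), in a comparison where 58.3% of 96 hairpins were called.

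The heart 5p arm also varied by letter among the female C3H sham mice, from 2.2% to 3.71% in the 4 of letter A and from 1.33% to 1.62% in the 4 of letter B. Compared with C57 sham females the C3H sham hearts held more of it, by 0.61 (SE 0.218, limma adjusted p = 0.0336, 31.1% of miRNAs called), but by 0.26 with TMM factors (limma adjusted p = 0.233). In RBC of C57 sham mice miR-126a-3p was lower in males, at 0.0859% ± 0.0123, than in females, at 0.132% ± 0.0255, a log2 difference of −0.61 (SE 0.183, limma adjusted p = 0.0166, 15.5% of miRNAs called), which was not called with quantile normalisation (−0.46, limma adjusted p = 0.131) or voom with TMM factors (−0.48, limma adjusted p = 0.0606) but was with edgeR on TMM factors (−0.51, edgeR adjusted p = 0.0423). In lung, brain and WBC no sex difference of either arm passed, where 3.27%, 21.5% and 15.5% of miRNAs were called.

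**Figure D5:**
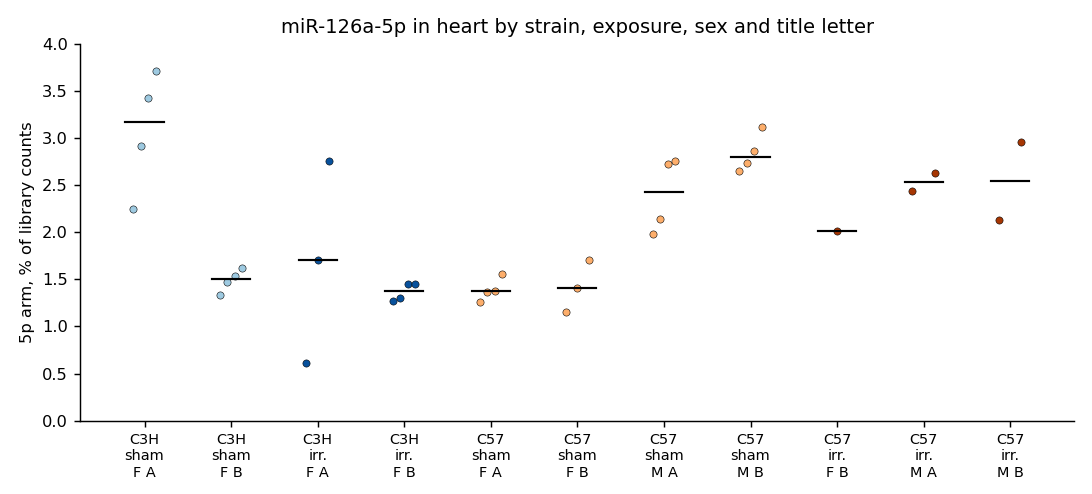
Share of miR-126a-5p (percent of heart library reads, axis from 0) by strain, exposure (irr., irradiated), sex (F, M) and title letter (A, B), 1 point per library with group medians as bars. C57 sham males lie above all C57 sham females, in a comparison where 37.6% of 367 miRNAs were called. C3H sham hearts of letter A lie above those of letter B.

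The arms did not rise and fall together in lung or heart. Across 35 libraries, deviations of the 3p and 5p arms from their group means gave r = −0.19 (Spearman rho = −0.30, adjusted permutation p = 0.337 and 0.183, raw p = 0.269 and 0.110, r = −0.44 without the 2 farthest libraries) in lung and r = −0.22 (rho = −0.25, adjusted permutation p = 0.337 and 0.201, raw p = 0.225 and 0.161, r = −0.035 without them) in heart. In brain r was 0.45 (rho = 0.36, adjusted permutation p = 0.0182 and 0.0977, raw p = 0.00421 and 0.0391, r = 0.33 without the 2 farthest libraries) and in RBC 0.45 (rho = 0.44, adjusted permutation p = 0.0182 and 0.0556, raw p = 0.00728 and 0.0111, r = 0.32 without them), and in WBC r was −0.14 (n = 27, rho = −0.22, adjusted permutation p = 0.502 and 0.284, r = −0.067 without them). Both arms are divided by the same total, of which the 3p arm is a large part. With both arms taken out of the total, r was 0.06 in lung, −0.02 in heart and −0.13 in WBC. In brain it was then 0.51 (rho = 0.43, adjusted permutation p = 0.00560 and 0.0347). In RBC it was 0.45 (rho = 0.44, adjusted permutation p = 0.0180 and 0.0347).

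The 5p arm ran with many other miRNAs in heart, brain and RBC. Its deviations in heart correlated above 0.8 with those of 26 of 104 miRNAs of at least 100 RPM, most closely with miR-19b-3p (r = 0.959), miR-143-5p (r = 0.951), miR-30e-5p (r = 0.940), miR-22-3p (r = 0.937) and miR-499-5p (r = 0.933), and below −0.8 with 4. In brain 42 of 182 lay above 0.8 and 7 below −0.8, in RBC 29 of 75 above and 0 below, and in WBC 8 of 93 above and 0 below. The highest r of the 3p arm in heart was 0.397, with miR-152-3p, and no miRNA passed 0.8 with it in brain (highest r = 0.760) or RBC (0.793), while in WBC 7 of 93 did (highest r = 0.903). In lung no miRNA passed 0.8 with either arm, and 3 fell below −0.8 with the 3p arm. The closest to the 5p arm was miR-455-5p (r = 0.697), and to the 3p arm miR-542-3p (r = 0.628), while the lowest r of the 3p arm was that with miR-34a-5p (r = −0.881). These lung values include the pair of C57 sham lungs that stood apart, with 19.6% and 23.6% of the 3p arm. They were not recomputed without that pair. All these correlations are descriptions over 35 libraries of each tissue (27 in WBC), and values of one library share its depth and total. The group means were those of strain and exposure, so differences by sex and letter, as described for heart, remain in the deviations. 

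The other miRNAs known for roles in endothelium and vessel growth formed a list of 26, of which 25 passed the filter in lung and heart. In C3H lung 6 of 25 were higher and 1 lower, where 27.1% of all miRNAs were higher and 6.0% lower, with a list median of 0.09 against 0.27 for all miRNAs, and with TMM factors 3 were higher and 6 lower. Among those named by smallest adjusted p, miR-10b-5p (1.56, SE 0.244, limma adjusted p = 4.62e-06) and miR-221-3p (1.23, SE 0.205, limma adjusted p = 1.27e-05) rose, miR-101a-3p fell by 1.04 (SE 0.201, limma adjusted p = 0.000105), and miR-27b-3p rose by 0.39 (SE 0.0891, limma adjusted p = 0.000790). In C57 lung 5 of 25 were higher and 2 lower, where 17.1% and 3.43% of all miRNAs were, led by miR-10b-5p (2.29, limma adjusted p = 7.02e-10) and miR-322-5p (1.02, limma adjusted p = 0.000359). In C3H heart 6 of 25 were higher and 1 lower (7.69% and 6.73% of all miRNAs), and in C57 heart 4 of 25 higher and 0 lower (4.81% and 0.641%). MiR-10b-5p (1.96 and 1.94) and miR-503-5p (0.63 and 0.62) were called in both strains. In brain, WBC and RBC no member was called in either strain, where 0 of 433, 0 of 291 and 0 of 229 miRNAs of any kind were. Several of these miRNAs are also abundant in cells other than endothelium.

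Markers of other cell types were set beside the arms. In C3H lung the summed level of 5 mesenchymal miRNAs was 47413 to 57360 RPM in sham and 39903 to 69762 RPM in irradiated mice, with 2 of the 5 called higher, that of 5 leukocyte miRNAs 3397 to 4826 and 2552 to 7019 RPM with 1 called higher, and that of 4 cardiac muscle miRNAs 4759 to 7515 and 2569 to 5226 RPM with 3 called lower. The epithelial and ciliated epithelium lists held 1 higher call each, and the erythrocyte and neuron lists none, against 27.1% of all miRNAs higher and 6.0% lower. In C3H heart the 4 cardiac muscle miRNAs summed to 216176 to 291001 RPM in sham and 50690 to 246805 RPM in irradiated mice, with 2 called lower, and the 5 ciliated epithelium miRNAs to 61.9 to 200.2 and 184 to 724 RPM, with 4 of 4 tested called higher. The leukocyte and erythrocyte lists held 1 lower call each there and the epithelial, mesenchymal and neuron lists none, against 7.69% of all miRNAs higher and 6.73% lower. In C57 lung the 3 neuron miRNAs summed to 56.6 to 192 RPM in sham and 121 to 557 RPM in irradiated mice with 2 called higher, and the 5 leukocyte miRNAs to 2393 to 9748 and 5564 to 6829 RPM with 2 called higher. There 1 ciliated epithelium miRNA was also higher and no erythrocyte, epithelial, mesenchymal or cardiac muscle miRNA was called (17.1% of all miRNAs higher, 3.43% lower), and in C57 heart 2 ciliated epithelium miRNAs were higher and 1 leukocyte miRNA lower (4.81% and 0.641%). Apart from miR-449a-5p, the ciliated epithelium list holds arms of miR-34b and miR-34c. The study reports miR-34b-3p and miR-34c-3p as changed in plasma and in C3H heart. Whether the heart calls of that list reflect ciliated cells was not tested. None of the markers of any list was at 0 in a lung or heart group. Their part in the miR-126a values was not tested.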

How the data were processed

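Small RNA libraries of lung, heart, brain, WBC and RBC were made with the QIAseq miRNA kit and, per the study's methods, the authors trimmed and aligned reads to mm10 miRNAs in a BaseSpace application. The deposited tables, 1 per tissue, hold raw counts of 1915 mature miRNAs with no normalisation by the authors, 0 columns of no sample and 0 rows without a name. Molecular identifiers and the handling of reads that match several miRNAs are not given in the sources used here, so intervals cover counting error only. Groups, sex and letter came from the labels. Libraries of the same group differed beyond sampling noise (chi-square over degrees of freedom at least 15.5), so each counted as 1 replicate.

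Counts were filtered with edgeR 4.0.16 (count minimum 10, total minimum 15) and tested in R 4.3.3 with limma 3.58.1, as voom log2 RPM of the library total in 1 model of 4 groups per tissue. No quantile step was used, since it fixes the value of the top rank. The arm ratio, log2 of (3p + 0.5) over (5p + 0.5) reads, was fitted over all hairpins with both arms. Sham sexes and strains were compared in 6 groups, and lung and heart in 1 joint fit. A call was an adjusted p (Benjamini-Hochberg, all features of a fit) under 0.05. Tissues were paired by the animal number in the labels. The correlation of an animal's deviations between lung and heart had a median of 0.12 over animals, from −0.72 to 0.76. Over all tissue pairs that median ran from −0.10 (heart and RBC) to 0.46 (WBC and RBC). Alternatives included edgeR, DESeq2 1.42.0, TMM, other filters, covariates and 1 library left out; the fits were tested on simulated data. The 2 arms, the 26 vessel miRNAs, the marker lists and the rule for named miRNAs were chosen with earlier results of these data known. Named miRNAs are the arms, miR-126b, up to 4 of the vessel list by smallest adjusted p, 5 by likeness, and rank neighbours, and others were named after their values were seen. RefSeq gave the sequences and GENCODE the Egfl7 exons. P-values were computed over mice, and permutation tests used scipy 1.17.1.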

Additional observations from a re-analysis of the deposited data

Results flagged for a closer look

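Of 45 sets of 5 to 8 libraries checked for a value far from the rest (a gap to its neighbour that is large against the range, which chance gives in about 1 of 20 sets), 7 held one. The 3p/5p ratio was highest in C3H irradiated heart replicate 3, at 65.6 against a next value of 27.0, and in C3H irradiated brain replicate 2, at 41.5 against 23.8. The 5p share was lowest in C57 irradiated brain replicate 5, at 0.269% against 0.592%. The 3p share was lowest in C57 irradiated lung replicate 5, the only female of that group, at 25.7% against 30.9%. In blood the 3p share was highest in C3H sham RBC replicate 3, at 0.170% against 0.114%, and in C3H sham WBC replicate 5, at 0.288% against 0.117%, whose ratio of 15.7 against 7.85 was also the highest of its group.

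The change after WTLI in C3H mice differed between lung and heart for miR-126a-3p by −0.53, as tested in the joint fit. It would not be seen after quantile normalisation. No cause was tested.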

How the results depend on the processing

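Besides leaving out libraries, 773 values were recomputed for 116 results. Of these 24 lost a call, 15 gained one and 19 changed direction by more than 1 standard error. The other 715 kept their side of the threshold, 54 of them with a change of sign within 1 standard error of 0. No cause of a change was tested. Values below are log2 differences. In C3H lung the 3p arm lost its call with quantile normalisation (0), totals without the 10 other top miRNAs (−0.15), a filter of 1 count (−0.32) and letter A alone (−0.22), and the 5p arm with those totals (−0.48), edgeR on library totals (−0.49), 1 strain at a time (−0.65) and letters A (−0.77) and B (−0.62) alone. In C57 lung the 3p arm was 0.26 with quantile normalisation and 0.0015 in males, and was called in letter B (−0.30) and without the 2 sham lungs (−0.25). In C3H heart the 3p arm was called with edgeR on totals (0.21), a filter of 10 counts in every library (0.21), sex as a covariate (0.21) and letter A (0.40), and the 5p arm with those totals (−0.68), sex (−0.62) and letter A (−1.10). The C57 heart 5p arm was −0.039 in males. Between sham females of heart the 5p call was lost with quantile (0.50), TMM (0.26) and edgeR TMM (0.28), and the 3p arm (−0.40, TMM) and the ratio (−0.67, letter as a covariate) gained one, as did the 3p arm between sexes (−0.39, TMM). In WBC the 5p strain difference turned with quantile (0.080), TMM (0.23) and edgeR (0.22), the sex difference with the same (−0.71, −0.51, −0.41), and the 3p interaction in letter A (−0.78). In C3H RBC the 3p arm was 0.38 (TMM), 0.42 (edgeR) and 0.36 (DESeq2), the 5p arm 0.12 in letter A and −1.73 in B, the ratio −0.060 and 1.71, and the interactions in letter A 0.13 and −0.67. The RBC sex call was lost with quantile (−0.46) and TMM (−0.48). Lung minus heart was 0 in C3H and 0.17 in C57 with quantile normalisation. Among tissue pairs, irradiated animals gave −0.15 for lung minus heart 3p, and for the ratio −0.38 (lung minus brain), 0.59 (lung minus WBC), 0.56 (lung minus RBC) and −0.14 (heart minus brain). C3H alone gave −0.46 for the heart minus brain ratio, and C57 alone 0.14 for lung minus heart 3p and 0.70 for the lung and the heart minus WBC ratios. With the animal as a replicate block lung minus heart 5p was called (0.29) and WBC minus RBC 5p was not (0.49), and the block changed no call of lung minus heart changes (C3H 3p −0.53).

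Leaving out 1 library at a time gave 1212 values, of which 8 lost a call, 10 gained one and 1 changed direction by more than 1 standard error. The other 1193 kept their side of the threshold, 69 of them with a change of sign within 1 standard error of 0. The ranges were −0.37 to −0.29 and −0.79 to −0.46 for the 3p and 5p arms of C3H lung, 0.18 to 0.23, −0.78 to −0.42 and 0.59 to 0.99 for the arms and ratio of C3H heart, −1.21 to −0.61 and 0.62 to 1.13 for the 5p arm and ratio of C3H RBC, and −0.12 to 0.24 for the 5p arm of C57 brain, positive without irradiated replicate 5. Vessel list calls moved most in C3H lung (11, totals without the top 10), C3H heart (4 with a filter of 1 count or 1 strain, 3 in letter B), C57 lung (3 in males, 4 with 1 strain, 2 and 3 in letters A and B), C57 heart (2 with sex or in males, 1 in each letter) and C3H RBC (9 lower in letter B, 1 higher with edgeR or DESeq2, against 0). Counts were lowest in the blood fractions, where the 5p arm had as few as 86 reads in a library.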
